A study of Homo sapiens with 8 samples.

Results

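The 10 genes described here encode repressors of the circadian clock and the PAR bZIP factors, a family of transcription factors with a proline- and acid-rich domain beside a basic leucine zipper. PER1, PER2, PER3, CRY1, CRY2, BHLHE40, BHLHE41, DBP, TEF and HLF were chosen by symbol, and all 10 were found among the 20531 genes of each deposited table. The RNA came from the human HER2-positive breast cancer cell lines SKBR-3, which the study describes as lacking the estrogen receptor, and BT474m1, which it describes as carrying it. Cultures in RPMI with fetal bovine serum received lapatinib at 300 nM, JQ1 at 300 nM, the 2 combined (both drugs) or only their solvent DMSO, for 48 h per the labels. The study also names this time for RNA from SKBR-3 with lapatinib, whereas its general methods text names a shorter treatment. Lapatinib blocks the kinase activity of EGFR and HER2, and JQ1 displaces BET proteins from acetylated histones. Each of the 8 groups held 1 library, so no test across replicates was possible, and each of the 2 lines stands for itself.

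In the circadian clock, CLOCK or NPAS2 pairs with BMAL1 (listed in the tables as ARNTL) and activates genes that carry E-boxes in their regulatory DNA. PER and CRY proteins are products of such genes and repress that activator, while BHLHE40 and BHLHE41 (also called DEC1 and DEC2) bind E-boxes and repress as well. DBP, TEF and HLF bind D-boxes and activate them, NFIL3 represses at the same sites, and the nuclear receptors NR1D1 and NR1D2 act on the BMAL1 gene. Every culture was sampled at 1 time, so neither a rhythm nor its phase was measured.

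The libraries held between 21420118 and 34112383 reads on genes, and 1 read was worth 0.471 to 0.766 units of the normalised read count. Intervals are 95% intervals from the recovered reads and cover counting error only, not the spread between cultures. ERBB2, the gene of HER2, lay between 94678 and 277872 normalised read counts, and the luminal keratin KRT8 lay between 24517 and 211202. ESR1 and PGR, the hormone receptor genes, lay at or below 16.8 and 3.1 in SKBR-3 and at or above 189.9 and 250.7 in BT474m1. The leukocyte and endothelial markers PTPRC, CD3E and PECAM1 were at or below 3.4 in all 8 libraries, and of the fibroblast markers COL3A1 was at or below 8.0 and COL1A1 ran from 24.1 to 1253. COL1A1 was lower with both drugs than with DMSO in each line, and its part in the changes below was not tested.

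Promoter sequences are shown for BHLHE40 and PER1, which hold an E-box near their start, and for DBP, which does not, because all 3 responded to the drugs in at least 1 line. RefSeq gave 14 promoter windows for the 10 genes on GRCh38.p14, each from 250 bases before to 50 bases after a transcription start. These 300 bases were searched on both strands for the E-box CACGTG, the E'-box CACGTT, the D-box TTATGTAA or TTACGTAA, the cAMP response element TGACGTCA and the forkhead motif GTAAACA or GTCAACA. The lines below show each window up to 30 bases after the start, 5' to 3' on the gene's strand, with matches in capitals. BHLHE40 lies at chr3:4979187-4979466 on the plus strand, PER1 at chr17:8152375-8152654 on the minus strand and DBP at chr19:48637350-48637629 on the minus strand.
BHLHE40: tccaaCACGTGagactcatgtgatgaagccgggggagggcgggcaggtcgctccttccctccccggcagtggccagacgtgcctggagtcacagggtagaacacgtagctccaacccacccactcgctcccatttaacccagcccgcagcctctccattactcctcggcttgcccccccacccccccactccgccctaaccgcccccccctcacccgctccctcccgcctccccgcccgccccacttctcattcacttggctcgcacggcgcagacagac
PER1: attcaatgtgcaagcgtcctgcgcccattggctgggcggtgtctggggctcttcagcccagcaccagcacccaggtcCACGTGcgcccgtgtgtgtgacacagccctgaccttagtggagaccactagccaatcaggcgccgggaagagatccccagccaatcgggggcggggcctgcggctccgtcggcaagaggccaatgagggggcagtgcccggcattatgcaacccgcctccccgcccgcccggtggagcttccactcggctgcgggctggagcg
DBP: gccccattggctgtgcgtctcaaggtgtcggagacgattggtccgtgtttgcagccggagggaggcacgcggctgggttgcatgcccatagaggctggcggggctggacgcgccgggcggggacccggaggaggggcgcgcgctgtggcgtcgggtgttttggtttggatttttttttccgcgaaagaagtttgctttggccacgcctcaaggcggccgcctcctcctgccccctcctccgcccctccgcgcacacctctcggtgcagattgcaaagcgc
The E-box of BHLHE40 began at position -245 and that of PER1 at position -173 relative to the start, and no searched motif was found in the DBP window.

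For other members only the match and its neighbouring bases are given, with the match in capitals, so that the differing core letters can be read against each other. CRY2 had an E'-box at position -188 of 1 of its windows (chr11:45847275-45847304, plus strand), read here as its reverse complement. TEF had an E-box in each of its windows, of which the match at position -195 is shown (chr22:41367248-41367277, plus strand). BHLHE41 had an E-box at position -48 (chr12:26125068-26125097, minus strand), and HLF had a cAMP response element at position -7 of 1 of its windows (chr17:55264941-55264972, plus strand).
CRY2: acacatggtaggAACGTGagggggcgggcc
TEF: gcgcgacagctcCACGTGctgcagctggcg
BHLHE41: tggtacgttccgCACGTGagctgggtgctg
HLF: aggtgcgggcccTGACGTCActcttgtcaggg
PER2 matched the E'-box at position -197 and the D-box at position -3, PER3 the D-box at position -177 of 1 of its windows, and CRY1 the E'-box at position -89 and the forkhead motif at positions -187 and -105. Of all 35116 RefSeq windows, 7.26% held the E-box, 5.34% the E'-box, 1.01% the D-box, 1.85% the cAMP response element and 5.62% the forkhead motif. A match is a run of letters and was not measured as a binding site, and the absence of a match says only that these letters are not in the window.

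In SKBR-3 cells with DMSO, CRY1 had the highest level per length of transcript, at 256 normalised read counts per kb of its MANE Select transcript (interval 241 to 272). PER1 at 99.8 per kb, DBP at 98.0 and BHLHE40 at 89.5 followed, and the intervals of these 3 neighbours overlapped. PER2 at 59.6, CRY2 at 48.7 and HLF at 47.7 formed the next group with overlapping neighbours. TEF stood at 24.5, BHLHE41 at 3.25 and PER3 at 0.225, the latter from 2 reads.

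In BT474m1 cells with DMSO, CRY1 again led at 207 normalised read counts per kb (interval 196 to 219). TEF at 123 and PER2 at 106 came next, then BHLHE40 at 82.3 and PER3 at 74.1, whose intervals overlapped. DBP at 61.5 and CRY2 at 52.7 also had overlapping intervals, and HLF at 28.3, PER1 at 21.1 and BHLHE41 at 8.06 closed the order. The lines thus differed in which PER gene was lowest per length, PER3 in SKBR-3 and PER1 in BT474m1.

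A gene was called raised or lowered at a difference of 1 or more in log2(value + 1), which is 2-fold. In BT474m1 against SKBR-3 with DMSO, 3 of the 10 genes were higher by this rule and 1 was lower, where 26.8% of the 14429 genes kept were higher and 15.6% lower. PER3 was higher by 7.60 on the log2 scale (interval 6.51 to 11.41), TEF by 2.32 (2.08 to 2.59) and BHLHE41 by 1.24 (0.52 to 2.18). The PER3 value depended on the pseudocount, as it set 1001 reads against 2, and it was 5.40 with a pseudocount of 10, where BHLHE41 stood at 0.86. PER3 passed the filter of 10 units only through BT474m1, the line where it was higher. PER1 was the member lower in BT474m1, with a log2 difference of -2.23 (-2.48 to -2.02). BHLHE40 and CRY2 differed between the lines by -0.12 and 0.11 on the log2 scale, and both intervals included no difference. The median of all genes kept was itself 0.21 higher in BT474m1 in this comparison, and that of the members was 0.00.

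**Figure D1:**
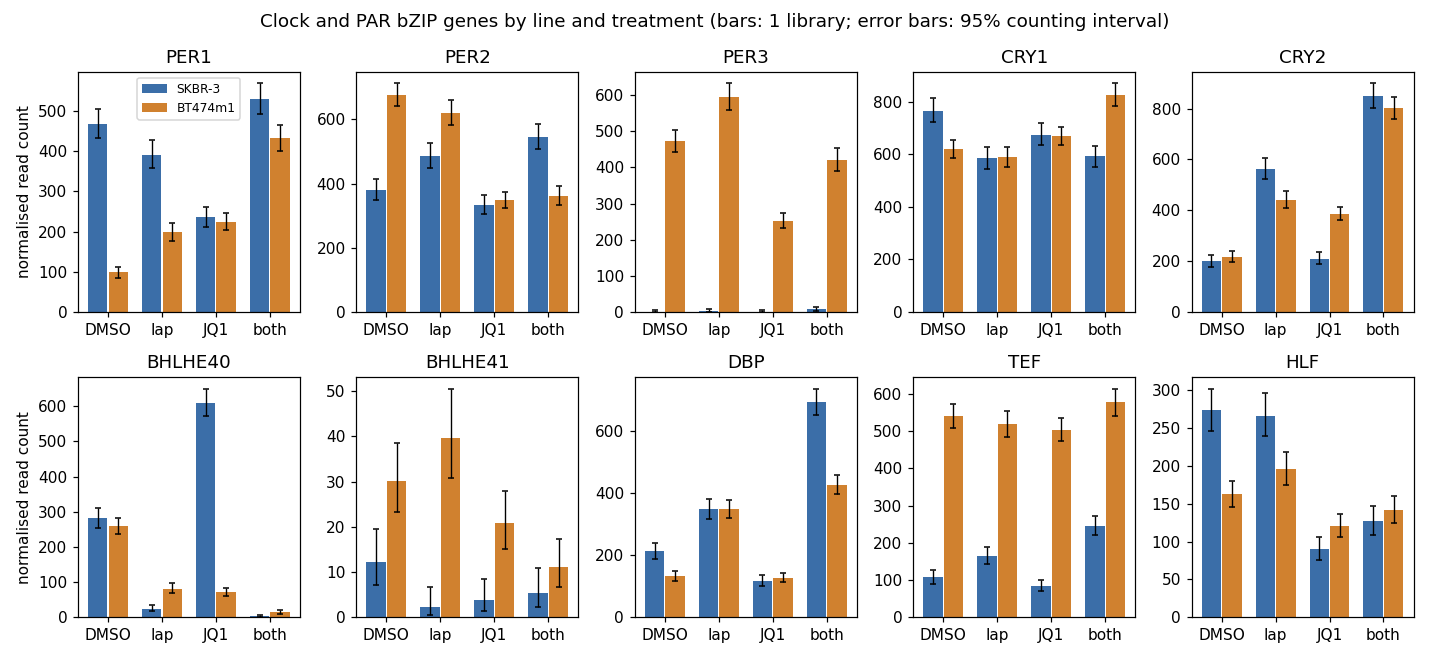
Normalised read count (y axis, linear from 0, own scale for each gene) of the 10 genes in SKBR-3 (blue) and BT474m1 (orange) with DMSO, lapatinib (lap), JQ1 or both drugs (x axis). A bar is 1 library and an error bar the 95% counting interval. BHLHE40 stood at 609.5 with JQ1 alone and 3.44 with the combination in SKBR-3, CRY2 was highest with both drugs in each line, and PER3 was near 0 in every SKBR-3 library.

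BHLHE40, the E-box repressor also called DEC1 (Entrez 8553, chr3:4979437-4985323 on the plus strand), varied most of the 10 genes among the treatments within each line. In SKBR-3 its normalised read count was 282 with DMSO, 25.3 with lapatinib, 609.5 with JQ1 alone and 3.44 with the combination. In BT474m1 it was 259 with DMSO, 81.3 with lapatinib, 72.0 with JQ1 alone and 14.6 with the combination. Both lines started from a like level and were lowest with both drugs, and JQ1 alone gave the highest value in SKBR-3 but a low one in BT474m1. The highest library exceeded the lowest 177-fold in SKBR-3 and 17.8-fold in BT474m1, and the lowest values rested on 5 and 25 reads.

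Lapatinib lowered BHLHE40 10.8-fold in SKBR-3 (log2 -3.43, interval -4.04 to -2.97) and 3.16-fold in BT474m1 (-1.66, -1.96 to -1.40). JQ1 raised it 2.16-fold in SKBR-3 (log2 1.11, 0.94 to 1.29) and lowered it 3.57-fold in BT474m1 (-1.83, -2.12 to -1.59). The SKBR-3 value was 0.96, just under the rule, when libraries were scaled to equal totals. These opposite directions came from 1 library per line and treatment, and their difference was not tested. With both drugs it was 63.8-fold lower in SKBR-3 (log2 -5.99, -7.99 to -5.12) and 16.7-fold lower in BT474m1 (-4.06, -4.79 to -3.58). A pseudocount of 10 in place of 1 gave 21.7-fold (-4.44) in SKBR-3 and a log2 of -3.45 in BT474m1. Against lapatinib alone, both drugs lowered it further, by a log2 of -2.56 (-4.59 to -1.51) in SKBR-3 and -2.40 (-3.16 to -1.86) in BT474m1, and the former was -1.39 with a pseudocount of 10. In a culture, fewer cells that express a gene and less RNA of it per cell cannot be told apart, here and for all genes that follow.

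BHLHE41, the related repressor DEC2 (Entrez 79365, chr12:26120030-26125037 on the minus strand), was scarce. In SKBR-3 its normalised read count was 12.2 with DMSO, 2.30 with lapatinib, 3.87 with JQ1 alone and 5.50 with the combination, from 17, 3, 6 and 8 reads. In BT474m1 it was 30.2, 39.8, 20.8 and 11.1 in the same order, from 64, 66, 43 and 19 reads. DMSO gave the highest of the SKBR-3 values and both drugs the lowest of the BT474m1 values. In SKBR-3 the log2 difference from DMSO was -1.998 with lapatinib (interval -4.82 to -0.62), -1.44 with JQ1 (-3.29 to -0.24) and, combined, -1.02 (-2.57 to 0.14), the last of which did not exclude no difference. In BT474m1 both drugs lowered it, by a log2 of -1.37 (-2.27 to -0.69) against DMSO and -1.75 (-2.66 to -1.09) against lapatinib. With a pseudocount of 10, which weighs low values less, no SKBR-3 value of BHLHE41 against DMSO passed 2-fold, and the BT474m1 value with both drugs was -0.93.

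The BHLHE41 gene overlaps SSPN, which encodes sarcospan, and the strand setting of the counting is not given in the sources used here. SSPN stood at 172, 254, 61.4 and 42.0 normalised read counts in BT474m1 with DMSO, lapatinib, JQ1 and both drugs, the same order of treatments as BHLHE41. In SKBR-3 it lay between 6.88 and 12.3. Reads of the overlapping genes may have been assigned to either, so the values of BHLHE41 are uncertain, and the part of SSPN in them was not tested.

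PER1, a repressor of CLOCK and BMAL1 (Entrez 5187, chr17:8140472-8152404 on the minus strand), stood at 467 normalised read counts with DMSO in SKBR-3, 391 with lapatinib, 236 with JQ1 alone and 529.7 with the combination. In BT474m1 it stood at 98.5, 198, 225 and 432. Within BT474m1 the DMSO library was lowest and both drugs highest, while in SKBR-3 JQ1 alone was lowest and both drugs exceeded DMSO by a log2 of only 0.18. With both drugs the lines stood nearer to each other than with DMSO.

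In BT474m1, PER1 was raised 2.001-fold by lapatinib (log2 1.001, interval 0.75 to 1.27), 2.27-fold by JQ1 (1.18, 0.95 to 1.43) and 4.35-fold by both drugs (2.12, 1.91 to 2.36). The lapatinib value lay on the threshold itself and was 0.95 with median-of-ratios scaling and 0.94 with a pseudocount of 10. In SKBR-3 no PER1 value passed 2-fold, with log2 differences of -0.25 with lapatinib (-0.42 to -0.09) and -0.98 with JQ1 (-1.17 to -0.80), the latter just inside the threshold and past it, at -1.13, with equal totals.

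PER2, the second of the PER repressors (Entrez 8864, chr2:238244044-238300065 on the minus strand), passed 2-fold nowhere. Its normalised read counts in SKBR-3 were 380.1 with DMSO, 485 with lapatinib, 334 with JQ1 alone and 546 with the combination, and in BT474m1 676, 621, 348 and 362. The BT474m1 libraries with JQ1, alone or combined, were the lowest of that line, at log2 differences of -0.96 (interval -1.09 to -0.83) and -0.90 (-1.04 to -0.77) from DMSO. In SKBR-3 both drugs stood 0.52 above DMSO on the log2 scale (0.36 to 0.68).

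PER3 (Entrez 8863, chr1:7784291-7845177 on the plus strand), the PER gene least needed for rhythms, was expressed in BT474m1 and nearly unread in SKBR-3. In BT474m1 its normalised read count was 472 with DMSO, 594 with lapatinib, 253 with JQ1 alone and 420.4 with the combination, and no value passed 2-fold. The largest log2 difference there was -0.90 with JQ1 (interval -1.06 to -0.75). In SKBR-3 it had 2, 5, 2 and 11 reads in the same order, and the log2 difference of 1.82 with both drugs had an interval from 0.21 to 5.62 and was 0.62 with a pseudocount of 10.

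CRY2, the cryptochrome that represses beside the PER proteins (Entrez 1408, chr11:45847118-45883244 on the plus strand), was raised by lapatinib and by both drugs in each line. In SKBR-3 its normalised read count was 201 with DMSO, 563 with lapatinib, 211 with JQ1 alone and 850.2 with the combination. In BT474m1 it was 218, 441, 387 and 802. Both drugs gave the highest value in each line, and JQ1 alone stood near DMSO in SKBR-3 and near lapatinib in BT474m1.

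Lapatinib raised CRY2 2.79-fold in SKBR-3 (log2 1.48, interval 1.28 to 1.69) and 2.02-fold in BT474m1 (1.01, 0.85 to 1.19), where median-of-ratios scaling gave 0.96 and a pseudocount of 10 gave 0.99. Both drugs raised it 4.21-fold (2.07, 1.89 to 2.27) and 3.67-fold (1.88, 1.73 to 2.04). Both drugs exceeded lapatinib alone by 0.59 (0.46 to 0.73) and 0.86 (0.73 to 0.99) on the log2 scale, under the 2-fold rule in each line.

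CRY1, the other cryptochrome (Entrez 1407, chr12:106991364-107093549 on the minus strand), stayed under 2-fold in every comparison. Its normalised read count ran from 585 to 766 in SKBR-3, and in BT474m1 it ran from 589 to 825, so that the highest library exceeded the lowest 1.31-fold and 1.40-fold. DMSO was highest in SKBR-3 and both drugs were highest in BT474m1. Its log2 difference with both drugs was -0.37 (interval -0.50 to -0.24) in SKBR-3 and 0.41 (0.31 to 0.52) in BT474m1.

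DBP, a D-box activator and clock output gene (Entrez 1628, chr19:48630030-48637379 on the minus strand), stood at 213 normalised read counts with DMSO in SKBR-3, 347 with lapatinib, 117 with JQ1 alone and 691 with the combination. In BT474m1 it stood at 133, 347, 127 and 426. JQ1 alone gave the lowest and both drugs the highest value in each line. In BT474m1 the interval of JQ1 against DMSO included no difference (log2 -0.07, -0.32 to 0.18). Lapatinib raised DBP 2.59-fold in BT474m1 (log2 1.37, interval 1.17 to 1.59), and in SKBR-3 the log2 difference was 0.70 (0.49 to 0.92). Both drugs raised it 3.24-fold in SKBR-3 (1.69, 1.51 to 1.89) and 3.18-fold in BT474m1 (1.67, 1.48 to 1.88).

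DBP overlaps SPHK2, the gene of a sphingosine kinase, so that reads may have been shared between them. SPHK2 lay between 152 and 267 normalised read counts in SKBR-3 and between 132 and 182 in BT474m1. In SKBR-3 it was lower with both drugs, at 166, than with DMSO, at 267, the opposite order to DBP. In BT474m1 it stood at 149 with DMSO, 176 with lapatinib, 132 with JQ1 alone and 182 with the combination, the same order of treatments as DBP, over a narrower range. The part of SPHK2 in the DBP values was not tested.

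TEF, the second PAR bZIP activator (Entrez 7008, chr22:41367455-41399326 on the plus strand), had normalised read counts of 107 with DMSO, 165 with lapatinib, 83.8 with JQ1 alone and 246 with the combination in SKBR-3. In BT474m1 it had 539.8, 519, 504 and 577. All BT474m1 libraries lay above all SKBR-3 libraries, and the treatments spread 2.94-fold in SKBR-3 and 1.14-fold in BT474m1. Both drugs raised TEF 2.28-fold in SKBR-3 (log2 1.19, interval 0.92 to 1.48), and in BT474m1 the difference was 0.10 (-0.03 to 0.22).

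HLF, the third PAR bZIP activator (Entrez 3131, chr17:55264960-55325187 on the plus strand), was the member that did not follow DBP and TEF in SKBR-3. Its normalised read counts there were 273 with DMSO, 266 with lapatinib, 89.6 with JQ1 alone and 127 with the combination, and in BT474m1 they were 162, 195, 119.8 and 141. The libraries with JQ1, alone or combined, were the lowest in each line. JQ1 lowered HLF 3.02-fold in SKBR-3 (log2 -1.60, interval -1.90 to -1.32) and both drugs 2.15-fold (-1.10, -1.37 to -0.85), which became -0.96 with median-of-ratios scaling. In BT474m1 the difference with JQ1 was -0.43 (-0.68 to -0.20), under the 2-fold rule, and that with both drugs was -0.20 (-0.44 to 0.04).

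**Figure D2:**
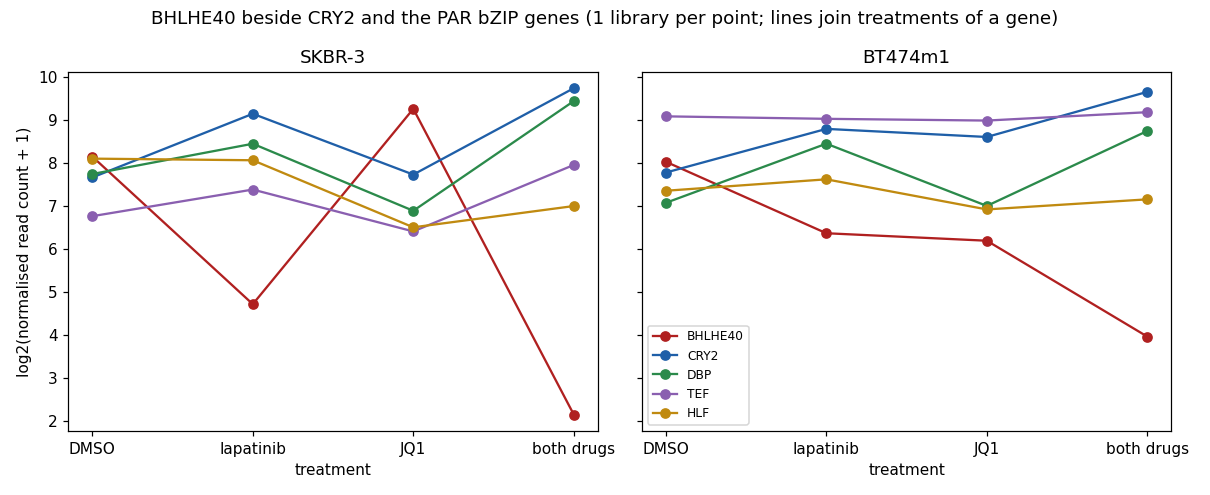
Log2(normalised read count + 1) (y axis) of BHLHE40, CRY2, DBP, TEF and HLF by treatment (x axis) in SKBR-3 (left) and BT474m1 (right). A point is 1 library and lines join the treatments of a gene. Over the treatments of a line, BHLHE40 was lowest with both drugs in each line, CRY2, DBP and TEF were highest with both drugs in each line, and HLF lay lower with JQ1 and both drugs than with DMSO. With both drugs in BT474m1, the intervals of HLF and TEF against DMSO included no difference.

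Counted over the 10 genes, all of which passed the filter of 10 units in at least 1 library, lapatinib raised 1 gene (CRY2) and lowered 2 (BHLHE40 and BHLHE41) in SKBR-3, where it raised 11.1% and lowered 9.44% of all genes kept. In BT474m1 it raised 3 (PER1, CRY2 and DBP) and lowered 1 (BHLHE40), beside 14.0% and 8.06% of all genes. CRY2 was raised and BHLHE40 lowered in both lines, which held for 4.39% and 4.15% of all genes. Median-of-ratios scaling and a pseudocount of 10 each left 1 gene raised in BT474m1 and took CRY2 there just under the rule, and the pseudocount also ended the SKBR-3 call of BHLHE41. The median log2 difference of the members was 0.16 in SKBR-3 and 0.30 in BT474m1, beside 0.05 and 0.07 for all genes.

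JQ1 raised 1 gene (BHLHE40) and lowered 2 (BHLHE41 and HLF) in SKBR-3, beside 3.75% and 11.8% of all genes. Equal totals gave 0 raised and 3 lowered there, and a pseudocount of 10 gave 1 lowered, without BHLHE41. In BT474m1 it raised 1 (PER1) and lowered 1 (BHLHE40), beside 4.81% and 11.8%. No member was raised or lowered by JQ1 in both lines, as 1.16% and 5.31% of all genes were. The members' median was -0.27 in each line, beside -0.08 and -0.06 for all genes.

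Both drugs raised 4 genes (PER3, CRY2, DBP and TEF) and lowered 3 (BHLHE40, BHLHE41 and HLF) in SKBR-3, beside 10.8% and 20.8% of all genes. The PER3 call there started from 2 reads, the BHLHE41 call had an interval that included no difference, and the HLF call was lost with median-of-ratios scaling. PER3 never exceeded 7.57 units in SKBR-3 and passed the filter only through BT474m1. In BT474m1 they raised 3 (PER1, CRY2 and DBP) and lowered 2 (BHLHE40 and BHLHE41), beside 14.2% and 15.3%. CRY2 and DBP were raised in both lines and BHLHE40 and BHLHE41 lowered in both, beside 4.46% and 8.93% of all genes, but with a pseudocount of 10 BHLHE41 passed 2-fold in neither line, at -0.52 and -0.93. The members' median was 0.35 in SKBR-3 and -0.03 in BT474m1, beside -0.08 and 0.00 for all genes. The members are few, and their share was not tested against that of all genes.

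**Figure D3:**
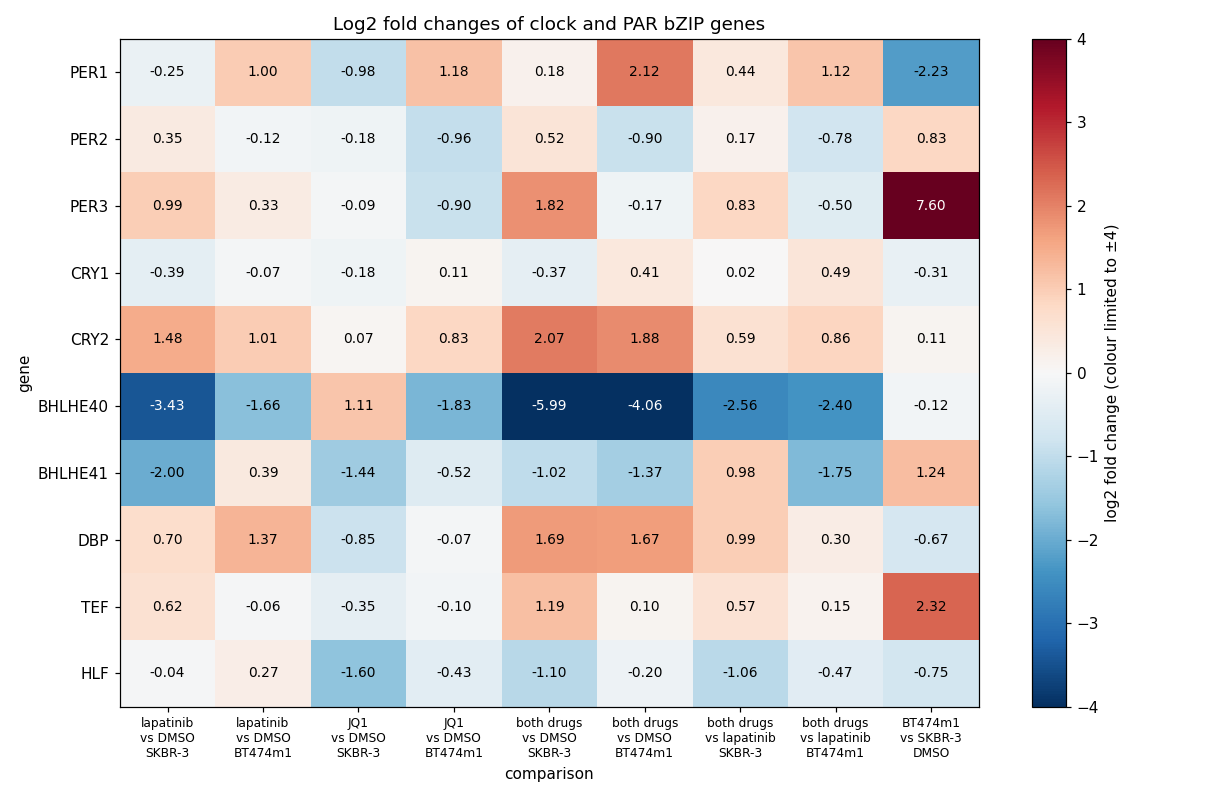
Log2 fold change (colour, limited to ±4, and printed value) of the 10 genes (y axis) in 9 comparisons of single libraries (x axis). BHLHE40 was the darkest blue row, from -5.99 to 1.11 against DMSO, and CRY1 stayed between -0.39 and 0.49 in every comparison.

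**Figure D4:**
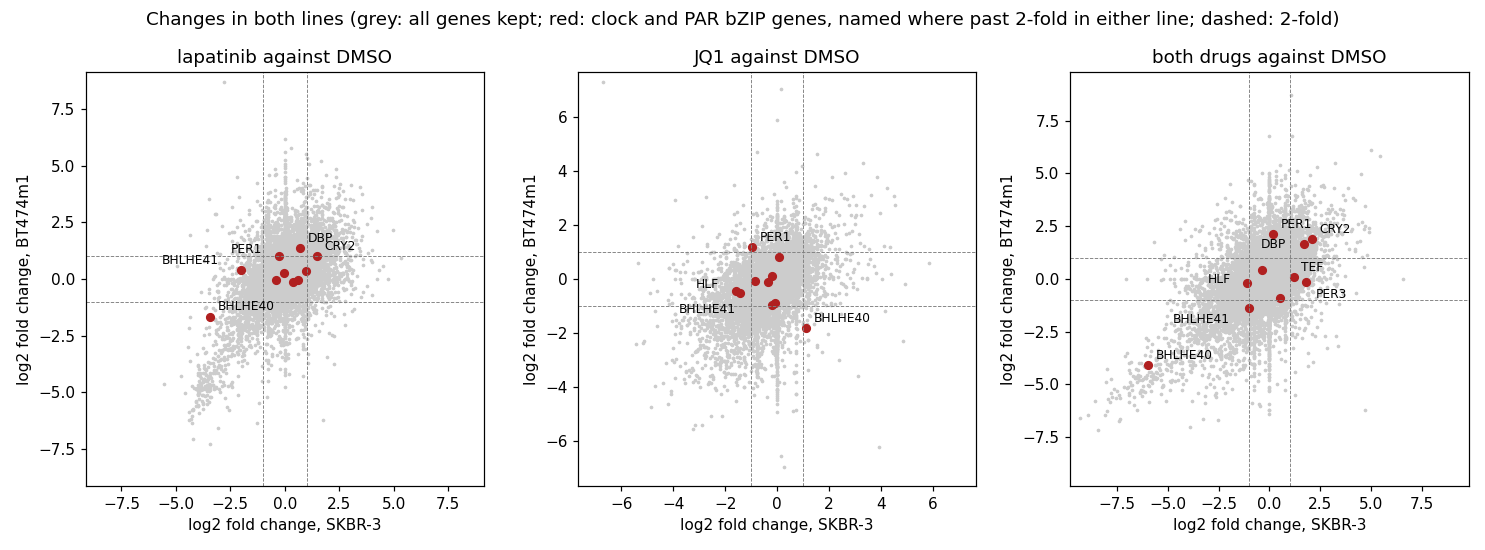
Log2 fold change in BT474m1 (y axis) against that in SKBR-3 (x axis) for all 14429 genes kept (grey) and the 10 genes (red), with lapatinib, JQ1 or both drugs. Dashed lines mark 2-fold. CRY2 and BHLHE40 lay beyond the dashed lines of both axes with lapatinib and with both drugs, CRY2 upwards and BHLHE40 downwards, and BHLHE40 lay to the right and below with JQ1, raised in SKBR-3 and lowered in BT474m1. The 3 panels share the DMSO libraries.

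Both drugs were also set against lapatinib alone, which asks what JQ1 changed in the presence of lapatinib. In SKBR-3 no member was raised and 2 were lowered (BHLHE40 and HLF), beside 3.22% and 16.2% of all genes. Yet 8 of the 10 members lay above lapatinib alone there, as 38.2% of all genes did, and their median log2 difference was 0.50, beside -0.11 for all genes. The intervals of 3 of the 8 included no difference, those of PER3 and BHLHE41, which rested on few reads, and that of CRY1, which stood at 0.02 and at -0.02 with equal totals. Median-of-ratios scaling gave 2 raised and 1 lowered, and a threshold of 1.5-fold gave 4 raised. In BT474m1 1 was raised (PER1, by a log2 of 1.12, interval 0.94 to 1.32) and 2 were lowered (BHLHE40 and BHLHE41), beside 5.20% and 12.5%, and the members' median was -0.16, beside -0.02 for all genes. Of the 10 members 5 lay above lapatinib alone in BT474m1 and 5 below, where 47.4% of all genes lay above. BHLHE40 was the member lowered in both lines, as 6.31% of all genes were, and none was raised in both, as 1.14% were. DBP stood at 0.99 (0.83 to 1.16) in SKBR-3, just under the threshold and past it at 1.15 with median-of-ratios scaling, and at 0.30 (0.14 to 0.46) in BT474m1.

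The response to both drugs was compared with the sum of the log2 responses to each drug, and all 3 use the same DMSO library. For BHLHE40 in SKBR-3 that sum was -2.32 and the measured response -5.99, a departure of -3.67 (approximate interval -5.04 to -2.31), from 5 reads in its lowest library. DBP departed upwards by 1.85 in SKBR-3 (1.54 to 2.16), PER1 by 1.42 (1.17 to 1.66) and TEF by 0.93 (0.51 to 1.34). In these 3 genes JQ1 alone stood below DMSO and both drugs above it. CRY2 and HLF each departed by 0.53 (0.26 to 0.79 and 0.15 to 0.91), PER2 by 0.35 (0.12 to 0.58) and CRY1 by 0.20 (0.01 to 0.39). PER3 at 0.91 and BHLHE41 at 2.42 rested on libraries of 2 and 3 reads and have no interval, so that BHLHE40 was the 1 member with a downward departure in SKBR-3. With a pseudocount of 10 the BHLHE40 departure in SKBR-3 was -2.48. In BT474m1 DBP departed by 0.37 (0.08 to 0.66), TEF by 0.25 (0.07 to 0.43), PER3 by 0.40 (0.20 to 0.61) and CRY1 by 0.38 (0.21 to 0.54). BHLHE41 departed downwards there by -1.24 (-2.16 to -0.31), from 19 reads in its lowest library. The BT474m1 intervals of PER1 at -0.06 (-0.36 to 0.24), CRY2 at 0.03 (-0.17 to 0.24) and BHLHE40 at -0.57 (-1.24 to 0.10) included 0, as did those of PER2 and HLF. The median departure of all genes was -0.06 in SKBR-3 and 0.01 in BT474m1.

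The likeness of the patterns was taken as Pearson's r of log2 values centred on each line's mean over the 8 libraries, which share line and treatment, and it is a description. BHLHE40 ran opposite to CRY2 at r = -0.970, to TEF at -0.910 and to DBP at -0.882. CRY2 and DBP ran together at 0.880, and PER3 and TEF at 0.866, although PER3 was near 0 reads in 1 line. HLF was not close to DBP (0.240) or TEF (0.131), and PER2 and CRY1 ran opposite at -0.753. Among the 11750 genes that reached 100 units in some library, the nearest to CRY2 were BSDC1 at 0.997 and TCEANC at 0.994, and the nearest to BHLHE40 was LOC341056 at 0.992. With 8 points and that many genes, values of r this high are found for most members.

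For the remaining members the nearest genes were THSD1P1 (0.964) and C1orf52 (0.963) for PER1, ZCCHC3 (0.989) and FAM21B (0.989) for PER2, and ZXDB (0.989) and TAB2 (0.983) for PER3. They were FAM161A (0.963) and QSOX2 (0.951) for CRY1 and MBP (0.963) and PPP2R2C (0.945) for BHLHE41. For the PAR bZIP genes they were ZNF350 (0.989) and TTC35 (0.987) for DBP, ZNF543 (0.982) and ZNF816A (0.978) for TEF, and ESD (0.993) and DCP1A (0.990) for HLF.

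Of 22 other clock genes listed, 19 passed the filter, and RORB, FBXL21 and CIART did not. In SKBR-3, lapatinib raised 3 and lowered 3 of the 19, JQ1 raised none and lowered 3, and both drugs raised 5 and lowered 6. In BT474m1, lapatinib raised 2 and lowered 1, JQ1 raised none and lowered 4, and both drugs raised 4 and lowered 4. In each comparison the shares of all genes given above apply.

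Among the activators, ARNTL (BMAL1) had normalised read counts of 83.0, 109, 96.0 and 92.2 in SKBR-3 with DMSO, lapatinib, JQ1 and both drugs, and of 116, 106, 106 and 120.1 in BT474m1. It passed 2-fold nowhere, and its values lay close together in both lines. Its partner CLOCK was lowered by both drugs in SKBR-3, by a log2 of -1.20 (interval -1.31 to -1.10), and stood at -0.81 in BT474m1 (-0.92 to -0.71). NPAS2, which can take the place of CLOCK, stood at 119, 283, 124 and 68.1 in SKBR-3 and at 187, 154, 49.8 and 36.7 in BT474m1. Lapatinib raised it in SKBR-3, by a log2 of 1.24 (0.98 to 1.52), and gave -0.28 (-0.52 to -0.05) in BT474m1, whereas JQ1 gave 0.06 (-0.25 to 0.37) in SKBR-3 and lowered it in BT474m1, by -1.89 (-2.24 to -1.60). With both drugs it was -0.79 (-1.18 to -0.44) and -2.32 (-2.76 to -1.96) from DMSO, and against lapatinib -2.04 (-2.39 to -1.73) and -2.03 (-2.49 to -1.66). ARNTL2, a relative of BMAL1, had log2 differences of -2.71 (-9.27 to -1.15) and -1.59 (-2.77 to -0.79) with both drugs against DMSO, the first resting on 1 read, and with a pseudocount of 10 neither passed 2-fold, at -0.91 and -0.96.

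Among the nuclear receptors, NR1D1 (REV-ERB alpha, a repressor of BMAL1) had normalised read counts of 194, 181, 78.3 and 86.3 in SKBR-3 and 43.9, 47.8, 21.4 and 19.7 in BT474m1. The libraries with JQ1, alone or combined, were the low ones in each line, at log2 differences of -1.30 (-1.64 to -1.001) and -1.003 (-1.60 to -0.51) with JQ1. Both drugs gave -1.16 (-1.49 to -0.86) and -1.12 (-1.76 to -0.56). With a pseudocount of 10 the BT474m1 values of NR1D1 fell under the 2-fold rule, at -0.78 with JQ1 and -0.86 with both drugs. NR1D2 (REV-ERB beta) stood at 1001, 1835, 1439 and 4870.2 in SKBR-3 and at 1866, 2812, 2256 and 3792 in BT474m1, and both drugs raised it by 2.28 (2.20 to 2.37) and 1.02 (0.97 to 1.08). So the paired receptors stood on opposite sides of DMSO with both drugs in each line. NR1D1 overlaps THRA, NR1D2 overlaps NKIRAS1 and CLOCK overlaps TMEM165, so with the strand setting not given their values are uncertain too, and the part of the overlapping genes was not tested.

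NFIL3, the D-box repressor that opposes DBP, TEF and HLF, had normalised read counts of 135, 186, 257 and 379.7 in SKBR-3 and 410.2, 405, 441 and 478 in BT474m1. It was raised by both drugs in SKBR-3, by a log2 of 1.49 (interval 1.26 to 1.74), where DBP and TEF were raised as well, and stood at 0.22 (0.08 to 0.36) in BT474m1. TIMELESS, which also acts in DNA replication, was lowered by lapatinib, by a log2 of -2.19 (-2.33 to -2.06) and -2.75 (-2.88 to -2.64). USP2, a clock-controlled protease gene, was lowered in SKBR-3 by each treatment, by a log2 of -2.05 (-2.69 to -1.53) with lapatinib, -2.01 (-2.60 to -1.54) with JQ1 and -3.51 (-4.65 to -2.81) combined. In BT474m1 it had 16 reads with DMSO, and the differences were 0.05 with lapatinib, -1.80 (-4.80 to -0.58) with JQ1, from 3 reads and -0.62 with a pseudocount of 10, and -0.45 (-1.88 to 0.74) combined. USP2 never exceeded 7.83 units in BT474m1 and passed the filter only through SKBR-3.

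**Figure D5:**
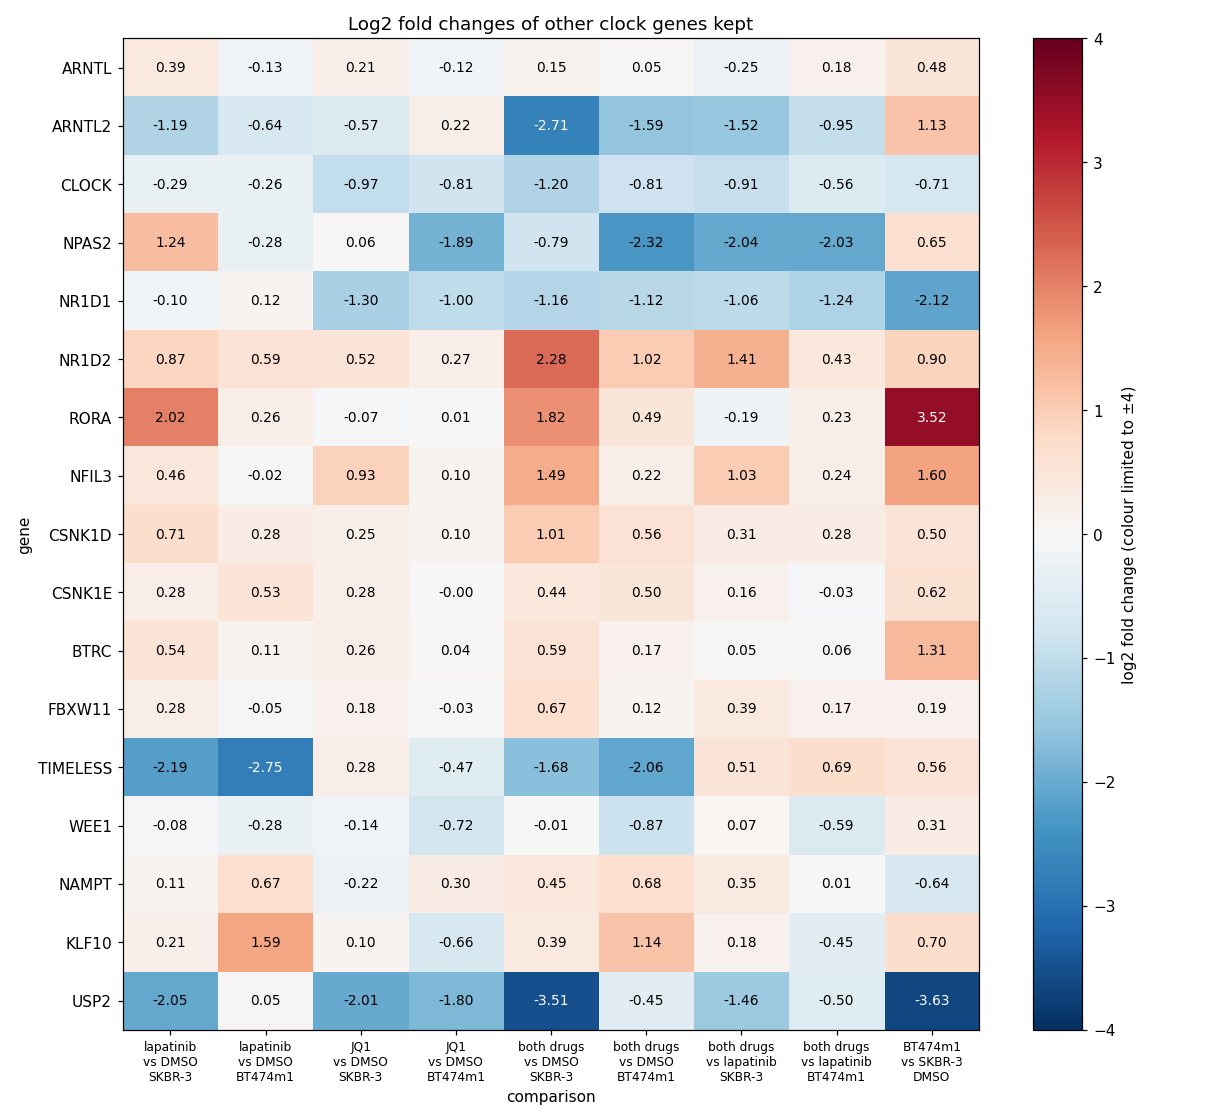
Log2 fold change (colour, limited to ±4, and printed value) of 17 of the 19 other clock genes kept (y axis) in 9 comparisons of single libraries (x axis). NR1D1 was between -1.30 and -1.003 with JQ1 or both drugs against DMSO, where a pseudocount of 10 took both BT474m1 values under 2-fold, NR1D2 was raised by both drugs at 2.28 and 1.02, and ARNTL stayed between -0.25 and 0.48.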

How the data were processed

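Poly(A) RNA was sequenced from 8 cultures of 2 lines and 4 treatments, and groups were taken from the labels. Each deposited table gives 1 signal value for a gene, an RSEM read count estimate that the authors scaled so that the upper quartile of genes above 0 is 1000. The submitters' processing notes name the build hg19, RSEM, Picard 1.88 and SAMtools 1.2, while the methods text of the study names hg38, STAR and Salmon, so that the build and annotation behind these tables are uncertain. The labels name TruSeq and KAPA Stranded kits for the same libraries, and the strand setting of the counting is not given in the sources used here. Gene positions are RefSeq positions on GRCh38.p14 and locate the gene, not the reads.

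The value of 1 read was recovered as the common step of each library, with which 83.8% to 85.2% of values above 0 were whole within 0.02 of a read. A floor of 3 reads was 1.41 to 2.30 units. The filter kept the 14429 of 20531 genes that reached 10 units in some library. Fold changes are differences of log2(value + 1), which understate the change of low genes, with 95% exact Clopper-Pearson intervals on the share of recovered reads. Departures from the sum of the single drugs have 95% intervals by normal approximation from summed counting variances, which are rough where reads are few. Amplified reads carry no molecular identifiers here and are not independent, so intervals and floors cover counting error only. With 1 library per group no p-value is given, and a gene was called at 2-fold. Every comparison against DMSO within a line uses the same DMSO library.

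The members and lists were chosen with earlier results of these data known. All 10 members are named. Of 22 other clock genes, those past 2-fold in both lines in a comparison are named, with ARNTL, CLOCK, NPAS2, NR1D1, NR1D2 and NFIL3 in any case, and for each member the 2 genes of highest r. Genes that this rule names but the text does not are not reported here, and they remain in the counts. Alternatives were a pseudocount of 10, median-of-ratios and equal-total scaling, no filter or one of 100, a threshold of 1.5-fold and calls whose interval excludes no change. Scripts ran in Python 3.11.15 with pandas 2.3.3, scipy 1.17.1, numpy 2.4.6 and, for figures, matplotlib 3.10.9, and were tested on simulated data.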

Additional observations from a re-analysis of the deposited data

Results flagged for a closer look

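For 3 genes the response pointed in opposite directions in the 2 lines, with both intervals excluding no difference and at least 1 line past 2-fold. By the same rule 2.47% of all genes kept pointed in opposite directions in the lapatinib comparison, 1.08% in that of JQ1 and 4.38% in that of the combination, each against DMSO, where 1, 2 and 1 of the 10 members did. The members' counts were not tested against those shares. PER1 stood 1.25 higher on the log2 scale in BT474m1 than in SKBR-3 in its difference between lapatinib and DMSO, and 2.16 higher in its difference between JQ1 and DMSO. The lapatinib value in BT474m1 was 1.001 and fell under 2-fold with median-of-ratios scaling, at 0.95, and with a pseudocount of 10, at 0.94. For BHLHE40 the JQ1 difference in BT474m1 minus that in SKBR-3 was -2.94, from a raised value in SKBR-3 and a lowered value in BT474m1. For PER3 the difference with both drugs in BT474m1 minus that in SKBR-3 was -1.98, with 2 and 11 reads behind the SKBR-3 value, which was 0.62 and under 2-fold with a pseudocount of 10. PER3 was kept only through BT474m1, as no SKBR-3 library reached the filter of 10 units. PER2 and CRY1 also pointed in opposite directions with intervals that excluded no difference, but passed 2-fold in neither line, at most by 0.52 in SKBR-3 against -0.90 in BT474m1 for PER2 and -0.37 against 0.41 for CRY1, both with both drugs. Each line had 1 library per treatment, and none of these differences between the lines was tested.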

How the results depend on the processing

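No log2 difference past 2-fold changed sign under another pseudocount or scaling. With the 2-fold rule kept, counts of the 10 members moved where values lay near the threshold or rested on few reads. A threshold of 1.5-fold moved more of the counts than any other alternative. It took in values from many reads, such as CRY2 at 0.59 with both drugs against lapatinib in SKBR-3. With a pseudocount of 10, lapatinib lowered 1 in SKBR-3 and raised 1 in BT474m1, JQ1 lowered 1 in SKBR-3 and both drugs lowered 1 in BT474m1. A filter of 100, which removes BHLHE41, left 1 lowered by lapatinib and 1 by JQ1 in SKBR-3, and in BT474m1 1 lowered by both drugs against DMSO and 1 against lapatinib. Median-of-ratios scaling gave 1 raised by lapatinib in BT474m1 and, in SKBR-3, 1 lowered by both drugs against DMSO and, against lapatinib, 2 raised and 1 lowered. With equal totals JQ1 raised 0 in SKBR-3, and the median of all genes in that comparison was -0.22 instead of -0.08. A threshold of 1.5-fold gave, in SKBR-3, 4 raised by lapatinib, 4 lowered by JQ1 and 4 raised by both drugs against lapatinib, in BT474m1 2 raised and 3 lowered by JQ1 and 2 raised by both drugs against lapatinib, and 3 lower in BT474m1 than in SKBR-3 with DMSO. For the other clock genes, a pseudocount of 10 gave 2 lowered by JQ1 and 2 by both drugs in BT474m1, and 1 raised and 2 lowered by both drugs against lapatinib in SKBR-3, where equal totals also gave 1 raised. The pseudocount of 10 was also applied to single clock genes and to departures from the sum of the single drugs, an alternative chosen after seeing the data. Without a filter, or with calls limited to intervals that exclude no change, every count of members stayed within 1.5 times its value. No paired analysis was possible because each group held 1 library, as far as numbered replicates within a line go, and a fit over both lines with the line as a block was not run. Genes with few reads, PER3 in SKBR-3 and BHLHE41, are limited by depth.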
